A study of Mus musculus with 3 samples.

Results

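TRBV3, known in the older nomenclature as Vβ16, is a variable gene of the mouse T-cell receptor β chain, and the clonotypes that carried it were the TCRβ rearrangements whose best matching V gene was TRBV3 and whose J gene was a TRBJ gene. By this rule 1090 of 167967 TCRβ clonotypes were TRBV3 clonotypes. The CD4 library held 287 of them, the CD8 library 598 and the DN library 205. The data were 3 TCR libraries from the spleen of 1 MRL.lpr mouse aged 16 weeks, made from the mRNA of 1000000 sorted cells of each subset. MRL.lpr is a lupus-prone strain that carries the recessive lpr mutation of Fas. Each subset came from that same animal, and no library from a Fas-sufficient mouse was part of the comparison. The third subset, double-negative (DN) T cells, carries neither CD4 nor CD8 and accumulates in lpr mice. The gates of this sort are not given in the sources used here. The tables hold only TCR sequences, so the labelled cell types could not be checked against other marker genes. TCRβ reads numbered 133667 in the CD4, 150874 in the CD8 and 194290 in the DN library. With 1 library per subset, each test compares libraries and not conditions.

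A TCRβ chain is assembled in the thymus by joining 1 V gene to a D gene and a J gene, with bases trimmed and added at both junctions. The joined stretch encodes CDR3, the loop that reads the peptide, from the conserved cysteine at the end of the V gene to the conserved phenylalanine of the J gene. The mouse locus holds TRBD1 with the TRBJ1 genes, followed by TRBD2 with the TRBJ2 genes, so TRBD2 is normally joined to TRBJ2 genes only. A rearrangement that is out of frame or holds a stop codon encodes no receptor, although its mRNA can still be sequenced. RefSeq's annotation of assembly GRCm38.p6 served for gene names and order only, and there Trbv3 (synonym Tcrb-V16) lies between Trbv2 and Trbv4.

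The CDR3 sequences that carried most TRBV3 reads are shown first, since J gene pairing, length, clone size and sharing are described on them below. The most frequent opening bases of the in-frame TRBV3 clonotypes and the closing bases of TRBJ2-5, read as the base found in at least 50% of sequences at each position, were as follows.
TRBV3 CDR3 start: tgtgccagcagctt
TRBJ2-5 CDR3 end: ccaagacacccagtacttt

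The 3 largest TRBV3 clonotypes by reads of every library, and the 3 with the highest lowest share among those found in every library, gave 10 distinct sequences, because the largest clonotype of the DN library (DN-a) was also the third largest of the CD8 library and the second of those shared by all. Letters in capitals mark the junction, the bases between the part that matched the TRBV3 start and the part that matched the end of the J gene.
CD4-a: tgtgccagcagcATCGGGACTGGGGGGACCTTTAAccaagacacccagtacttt
CD4-b: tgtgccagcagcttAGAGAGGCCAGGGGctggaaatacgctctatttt
CD4-c: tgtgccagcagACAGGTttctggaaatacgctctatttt
CD8-a: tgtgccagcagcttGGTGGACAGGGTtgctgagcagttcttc
CD8-b: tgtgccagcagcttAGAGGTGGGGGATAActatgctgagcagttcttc
DN-a: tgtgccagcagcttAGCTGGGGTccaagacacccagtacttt
DN-b: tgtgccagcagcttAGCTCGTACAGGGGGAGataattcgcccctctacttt
DN-c: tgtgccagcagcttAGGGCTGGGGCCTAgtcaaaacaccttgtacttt
shared-a: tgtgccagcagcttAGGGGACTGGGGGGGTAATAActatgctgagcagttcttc
shared-c: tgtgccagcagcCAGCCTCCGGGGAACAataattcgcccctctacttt
All 10 were in frame. TRBJ2-5 was the J gene of CD4-a and DN-a, the largest TRBV3 clonotypes of their libraries, TRBJ1-3 that of CD4-b and CD4-c, TRBJ2-1 that of CD8-a, CD8-b and shared-a, TRBJ1-6 that of DN-b and shared-c, and TRBJ2-4 that of DN-c. They ranged from 39 nucleotides in CD4-c to 54 in CD4-a and shared-a, with junctions of 6 to 23 bases.

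TRBV3 was a minor V gene in every subset, and its share was lowest in the DN library. It held 818 reads in the CD4, 956 in the CD8 and 835 in the DN library. This was 0.612% (95% Wilson interval 0.572 to 0.655) of TCRβ reads in the CD4, 0.634% (0.595 to 0.675) in the CD8 and 0.430% (0.402 to 0.460) in the DN library. By reads it ranked 16th in each library, among 26 V genes in the CD4, 24 in the CD8 and 29 in the DN library. The share of reads in the DN library was 0.678 times that in the CD8 library (95% interval 0.618 to 0.744; adjusted p = 4.35e-16, Fisher's exact test, two-sided, over reads, with Benjamini-Hochberg adjustment over V genes) and 0.702 times that in the CD4 library (0.638 to 0.773; adjusted p = 1.56e-12 by the same exact test). Most V genes differed between these libraries by this test, with 69% of V genes called in DN against CD8, 75.9% in DN against CD4 and 84.6% in CD4 against CD8. The CD4 and CD8 libraries were not told apart by the reads of TRBV3, with a ratio of 0.966 (0.880 to 1.06; adjusted p = 0.493, Fisher's exact test). That comparison rested on the largest clonotypes. Without the largest TRBV3 clonotype of each library, the ratio of CD4 over CD8 was 0.801 (0.726 to 0.885; adjusted p = 1.57e-05, Fisher's exact test). The intervals cover counting error only, since amplified reads that carry no molecular tags do not each stand for their own mRNA molecule. Fewer cells with TRBV3 and less TCRβ mRNA per such cell cannot be told apart in these data.

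Counting each clonotype once gave the same order of the subsets. TRBV3 made up 0.641% of clonotypes in the CD4 (0.571 to 0.719), 0.736% in the CD8 (0.680 to 0.798) and 0.489% in the DN library (0.426 to 0.560). The share in the DN library was 0.664 times that in the CD8 library (0.567 to 0.777; adjusted p = 3.98e-07, Fisher's exact test on clonotypes) and 0.763 times that in the CD4 library (0.638 to 0.912; adjusted p = 0.00626, the same exact test). The CD4 and CD8 libraries differed by a ratio of 0.870 (0.756 to 1.00), which did not pass (adjusted p = 0.0651, Fisher's exact test). Of all V genes, 65.5% were called by clonotypes in DN against CD8, 51.7% in DN against CD4 and 76.9% in CD4 against CD8. At an equal depth of 133667 reads, the expected number of TRBV3 clonotypes was 547 in the CD8 library and 160 in the DN library, beside the 287 observed in the CD4 library. All TCRβ clonotypes differed in the same order, with 74624 expected in the CD8 and 33708 in the DN library, beside 44807 observed in the CD4 library. Among 20 other V genes with at least 100 reads in each library, those nearest to TRBV3 in the log2 ratios of DN over CD8 and DN over CD4 read share, taken over the 3 libraries, were TRBV19 (distance 0.53), TRBV31 (0.54) and TRBV30 (0.71). TRBV3 itself stood at -0.56 and -0.51 on these log2 scales, TRBV19 at -0.31 and -0.04, TRBV31 at -0.30 and -0.04, and TRBV30 at 0.13 and -0.35.

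**Figure D1:**
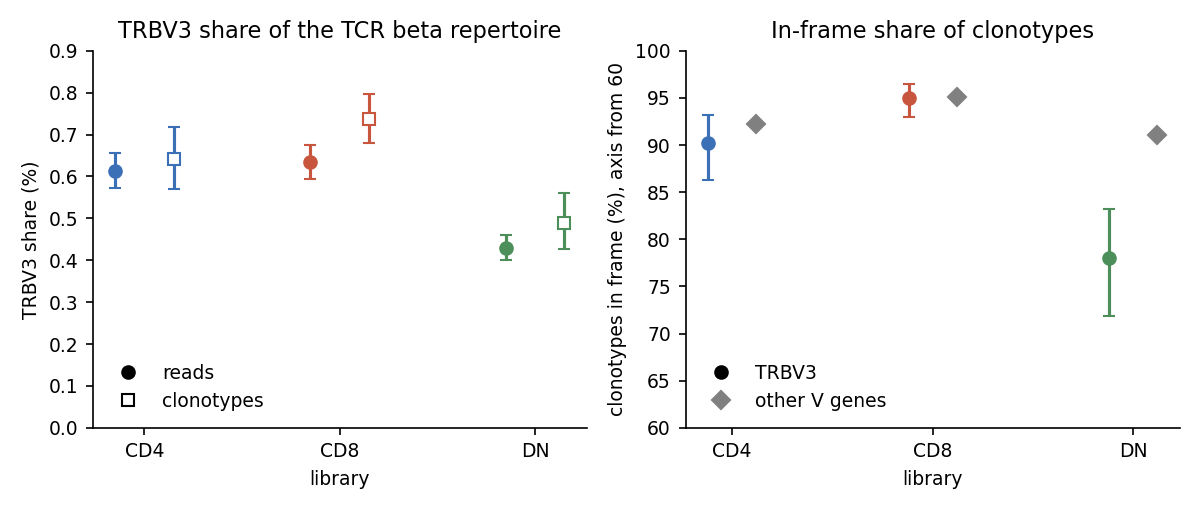
Left, TRBV3 share of TCRβ reads (filled circles) and of TCRβ clonotypes (open squares) in each library, in percent, with 95% Wilson intervals that cover counting error only. Right, percent of clonotypes in frame for TRBV3 (circles, with 95% Wilson intervals) and for all other V genes of the library (grey diamonds), on an axis that starts at 60; the DN circle, at 78.0%, lies below its diamond at 91.1%.

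In the DN library 45 of the 205 TRBV3 clonotypes could not encode a receptor, a larger part than of the other V genes together. In-frame clonotypes without a stop codon were 259 of 287 in the CD4 (90.2%, 86.3 to 93.2), 568 of 598 in the CD8 (94.98%, 92.9 to 96.5) and 160 of 205 in the DN library (78.0%, 71.9 to 83.2). All other V genes together stood at 92.2% in the CD4, 95.1% in the CD8 and 91.1% in the DN library. The ratio of TRBV3 over the other V genes was 0.857 in the DN library (0.797 to 0.921; adjusted p = 3.33e-08, two-sided Fisher's exact test on clonotypes, Benjamini-Hochberg over the V genes of the library). In the CD4 library it was 0.979 (0.942 to 1.02; adjusted p = 0.253, Fisher's exact test), and in the CD8 library 0.999 (0.980 to 1.02; adjusted p = 0.849, Fisher's exact test). V genes differed widely in this measure, and 80.8% of them were called in the CD4, 87.5% in the CD8 and 69% in the DN library. Among 21 V genes with at least 50 clonotypes in the DN library, TRBV3 had the seventh lowest in-frame share, above TRBV24, TRBV12-1, TRBV15, TRBV12-2, TRBV16 and TRBV4.

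Compared directly between libraries, the in-frame share of TRBV3 clonotypes in the DN library was 0.822 times that in the CD8 library (0.762 to 0.886; adjusted p = 1.56e-10) and 0.865 times that in the CD4 library (0.797 to 0.939; adjusted p = 0.000819), both by two-sided Fisher's exact tests adjusted over 6 comparisons that were chosen after the values were seen. The share in the CD4 library was 0.9501 times that in the CD8 library (0.911 to 0.991; adjusted p = 0.0258, Fisher's exact test). The other V genes were also lower in the CD4 than in the CD8 library, at 92.2% against 95.1%, and stood at 91.1% in the DN library. Within neither the CD4 nor the CD8 library was TRBV3 told apart from them.

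The clonotypes that were not in frame were small in each library. In the DN library there were 45, of which 35 had a single read and the largest had 8 reads. Their reads came to 40 in the CD4, 42 in the CD8 and 74 in the DN library. Thus 95.1%, 95.6% and 91.1% of TRBV3 reads were in frame, beside 94.8%, 96.3% and 95.3% for the other V genes. All 45 in the DN library had a length that was not a multiple of 3, from 35 to 50 nucleotides with a median of 43, and they used 12 J genes. The largest, DN-out-a with TRBJ2-3 and 8 reads, and the next, DN-out-b with TRBJ2-7 and 6 reads, were chosen after their values were seen and are printed to show what such a junction looks like.
DN-out-a: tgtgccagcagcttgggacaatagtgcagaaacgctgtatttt
DN-out-b: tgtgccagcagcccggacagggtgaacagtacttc
DN-out-a opens with the whole TRBV3 start, and DN-out-b with all but its final bases. They have 43 and 35 nucleotides. A sequence that differs from an in-frame TRBV3 clonotype of the same J gene by 1 added or missing base was found for 4 of the 45 in the DN (8.89%), for 10 of 28 in the CD4 (35.7%) and for 5 of 28 in the CD8 library (17.9%), where the other 2 not in frame held a stop codon. Among the other V genes this share was 29.7% in the DN, 26.8% in the CD4 and 30.0% in the CD8 library. Without all such sequences, the ratio of the in-frame share in the DN library was 0.852.

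TRBV3 was joined to TRBJ2-5 far more often than other V genes were, in all 3 subsets. TRBJ2-5 was the J gene of 113 of 259 in-frame TRBV3 clonotypes in the CD4 (43.6%, Wilson interval 37.7 to 49.7), of 222 of 568 in the CD8 (39.1%, 35.2 to 43.2) and of 63 of 160 in the DN library (39.4%, 32.1 to 47.1). With the other V genes TRBJ2-5 made up 11.7% of in-frame clonotypes in the CD4, 13.1% in the CD8 and 11.8% in the DN library. The ratio was 3.72 in the CD4 library (3.23 to 4.28; adjusted p = 3.75e-35), 2.97 in the CD8 library (2.68 to 3.30; adjusted p = 8.16e-51) and 3.35 in the DN library (2.76 to 4.07; adjusted p = 6.05e-17), by two-sided Fisher's exact tests adjusted over all V by J pairs of a library. Of all V by J pairs, 23.7% were called in the CD4, 37.5% in the CD8 and 16% in the DN library. Among V genes with at least 50 in-frame clonotypes, TRBV3 had the highest TRBJ2-5 share in each library, and the next were TRBV14 with 26.7% in the CD4, TRBV12-2 with 26.9% in the CD8 and TRBV14 with 21.5% in the DN library. Between subsets the TRBJ2-5 share of TRBV3 was not told apart: the ratio was 1.01 for DN over CD8 (0.810 to 1.25; adjusted p = 1.00), 0.902 for DN over CD4 (0.712 to 1.14; adjusted p = 0.499) and 1.12 for CD4 over CD8 (0.940 to 1.33; adjusted p = 0.334), by Fisher's exact tests.

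**Figure D2:**
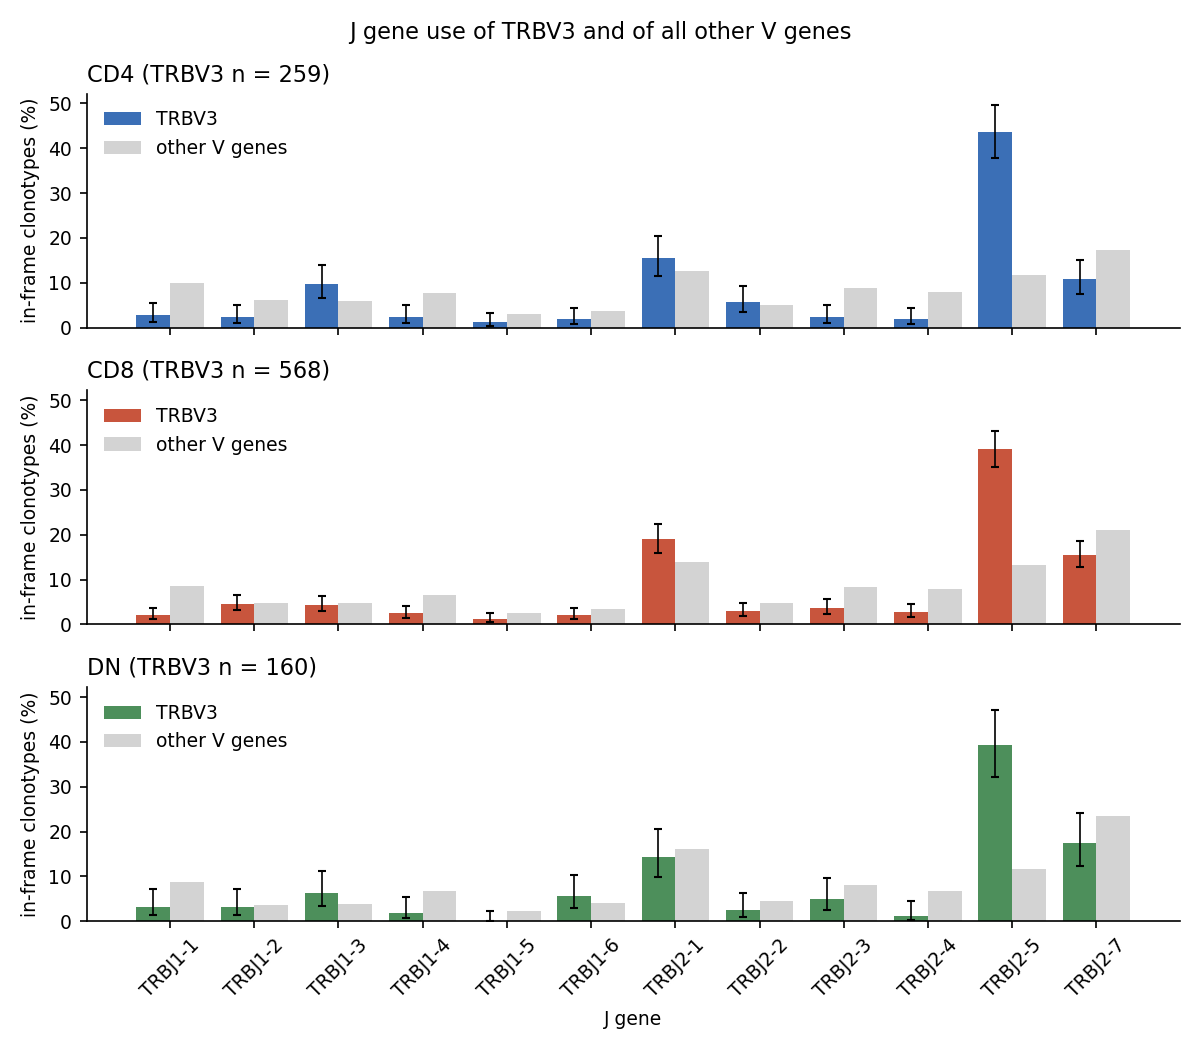
Percent of in-frame clonotypes with each J gene in the CD4, CD8 and DN libraries, for TRBV3 (coloured bars with 95% Wilson intervals) and for all other V genes of the library (grey bars). TRBJ2-5 is the tallest coloured bar in each library, at 43.6%, 39.1% and 39.4%.

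**Figure D3:**
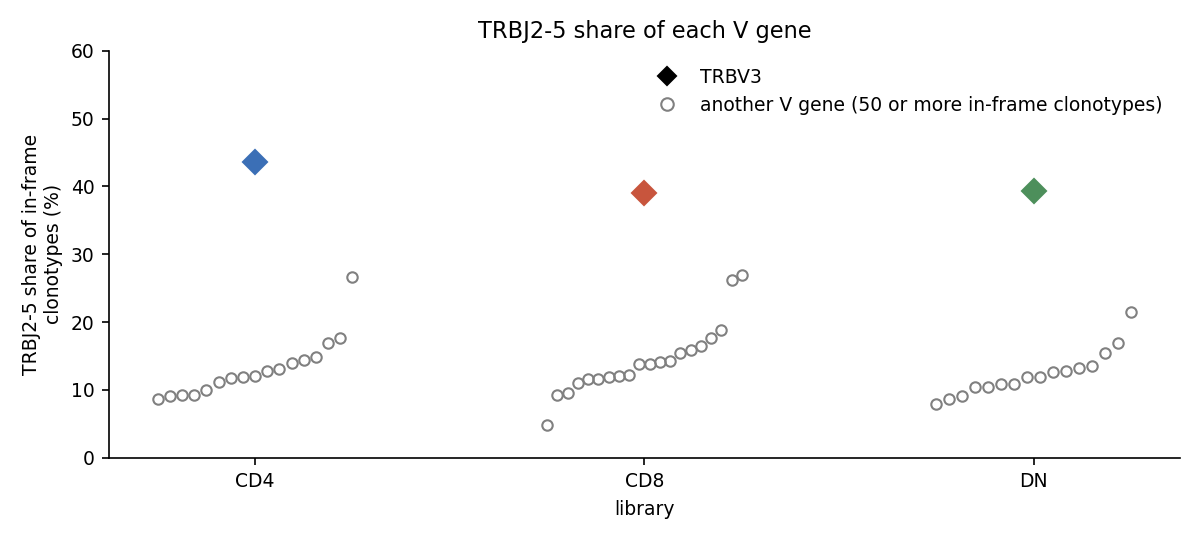
Percent of in-frame clonotypes that use TRBJ2-5, for each V gene with at least 50 in-frame clonotypes in a library. TRBV3 (filled diamonds) lies above each of the other V genes (open circles, in order of share) in the CD4, CD8 and DN libraries.

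The pairing was present among small and large clonotypes. Of TRBV3 clonotypes with a single read, 41.0% used TRBJ2-5 in the CD4, 38.1% in the CD8 and 36.6% in the DN library. Of those with at least 5 reads, 14 of 27 did in the CD4, 7 of 17 in the CD8 and 14 of 27 in the DN library. By reads the share was 48.5% in the CD4, 37.0% in the CD8 and 47.4% in the DN library, beside 13.4%, 12.8% and 11.1% for the other V genes. Leaving out the largest TRBV3 clonotype, which was CD4-a in the CD4 library and DN-a in the DN library, gave 36.1%, 38.1% and 31.4% by reads. Among TRBV3 clonotypes found in a single library, TRBJ2-5 made up 41.2% in the CD4, 37.6% in the CD8 and 31.9% in the DN library.

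Among TRBV3 clonotypes that were not in frame, TRBJ2-5 was less frequent in the DN library, at 7 of 45 (15.6%, 7.75 to 28.8) against 39.4% of those in frame (ratio 0.395, 0.195 to 0.801; adjusted p = 0.00749, Fisher's exact test adjusted over 3 libraries). The values were 7 of 28 (25%, 12.7 to 43.4) in the CD4 library and 6 of 30 (20%, 9.51 to 37.3) in the CD8 library, which did not pass (adjusted p = 0.0697 for both, Fisher's exact test). This comparison was chosen after the values were seen. Other V genes had TRBJ2-5 in 12.9%, 13.6% and 12.9% of their clonotypes that were not in frame in the CD4, CD8 and DN libraries.

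Several other J genes were joined to TRBV3 less often than to other V genes. Of 12 J genes, 1 was higher with TRBV3 and 6 were lower in the CD4, 2 were higher and 5 lower in the CD8, and 1 was higher and 2 were lower in the DN library. TRBJ1-1 and TRBJ2-4 were lower in each library. TRBJ1-1 was the J gene of 2.70%, 2.11% and 3.12% of in-frame TRBV3 clonotypes in the CD4, CD8 and DN libraries, against 10.03%, 8.67% and 8.81% with other V genes (adjusted p = 0.000132, 2.83e-09 and 0.0468, Fisher's exact test). TRBJ2-4, the J gene of the large clonotype DN-c, made up 1.93%, 2.82% and 1.25% against 8.01%, 7.89% and 6.67% (adjusted p = 0.000496, 5.65e-06 and 0.0168, Fisher's exact test).

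TRBJ1-4 and TRBJ2-3 were lower in the CD4 and CD8 libraries, and TRBJ1-2 in the CD4 library. TRBJ2-7, the most used J gene of the other V genes, was lower with TRBV3 in the CD4 library (10.8% against 17.3%; adjusted p = 0.0233) and the CD8 library (15.5% against 21.0%; adjusted p = 0.00365), by Fisher's exact tests. It stood at 17.5% against 23.5% in the DN library (adjusted p = 0.245, Fisher's exact test). TRBJ2-1 was higher with TRBV3 in the CD8 library, at 19.0% against 14.0% (adjusted p = 0.00402, Fisher's exact test). It stood at 15.4% against 12.6% in the CD4 and 14.4% against 16.1% in the DN library (adjusted p = 0.364 and 0.898, Fisher's exact test).

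TRBJ2 genes together were used by 227 of 287 TRBV3 clonotypes in the CD4 (79.1%, 74.0 to 83.4), by 493 of 598 in the CD8 (82.4%, 79.2 to 85.3) and by 155 of 205 in the DN library (75.6%, 69.3 to 81.0). The other V genes stood at 63.9%, 69.5% and 70.7%. The ratio was 1.24 in the CD4 library (1.17 to 1.31; adjusted p = 1.34e-07), 1.19 in the CD8 library (1.14 to 1.23; adjusted p = 2.60e-12) and 1.07 in the DN library (0.989 to 1.16; adjusted p = 0.231), by Fisher's exact tests. Of all V genes, 50% were called in the CD4, 50% in the CD8 and 37.9% in the DN library. When TRBJ2-5 clonotypes were left out of all V genes, the ratio was 1.09 in the CD4 (adjusted p = 0.359), 1.10 in the CD8 (adjusted p = 0.0126) and 0.943 in the DN library (adjusted p = 0.454), by Fisher's exact tests.

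TRBD2 was also more frequent with TRBV3 than with other V genes in the CD4 and CD8 libraries. Of TRBV3 clonotypes with a named D gene, 120 of 239 had TRBD2 in the CD4 (50.2%, 43.9 to 56.5), 253 of 473 in the CD8 (53.5%, 49.0 to 57.9) and 85 of 157 in the DN library (54.1%, 46.3 to 61.7), against 39.9%, 44.1% and 51.9% for the other V genes. The difference passed in the CD4 library (ratio 1.26; adjusted p = 0.00414) and the CD8 library (ratio 1.21; adjusted p = 0.000100) and did not in the DN library (ratio 1.04, 0.902 to 1.20; adjusted p = 0.682), by Fisher's exact tests. The share of V genes called was 46.2% in the CD4, 50% in the CD8 and 55.6% in the DN library. Within TRBJ2 clonotypes alone, TRBD2 made up 59.5%, 62.8% and 67.2% of TRBV3 clonotypes with a named D gene, against 55.3%, 57.3% and 66.3%. These ratios were 1.08 in the CD4 (adjusted p = 0.295), 1.10 in the CD8 (adjusted p = 0.0410) and 1.01 in the DN library (adjusted p = 1.00), by Fisher's exact tests. With TRBJ1 genes, TRBD2 was named for 4 of 44 TRBV3 clonotypes in the CD4, 1 of 72 in the CD8 and 3 of 35 in the DN library. No D gene was named for 16.7%, 20.9% and 23.4% of TRBV3 clonotypes in the CD4, CD8 and DN libraries, beside 26.2%, 26.0% and 23.0% of the others.

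The CDR3 of TRBV3 was longer than that of the other V genes in the CD4 library. By means the margin was smaller in the CD8 library and smallest in the DN library. By medians it was seen in the CD4 and DN libraries, at 45 against 42 nucleotides in both, while both medians of the CD8 library were 42. Clonotypes with at least 2 reads gave a margin of means of 0.545 nucleotides in the CD8 and 0.995 in the DN library. Over in-frame clonotypes its mean length was 43.9 ± 4.72 nucleotides (SD over 259 clonotypes) in the CD4, 42.7 ± 4.89 (568 clonotypes) in the CD8 and 42.8 ± 5.91 (160 clonotypes) in the DN library. The other V genes had means of 41.7, 41.7 and 42.6 nucleotides, with SDs of 4.46, 4.55 and 4.53. The difference was 2.19 ± 0.294 (SE over clonotypes) in the CD4, 0.996 ± 0.206 in the CD8 and 0.127 ± 0.468 nucleotides in the DN library. No test was applied, since clonotypes of 1 library are not replicates. Among V genes with at least 50 in-frame clonotypes, TRBV3 had the longest mean in the CD4 (of 18), the fourth longest in the CD8 (of 21) and the sixth longest in the DN library (of 17). In the CD4 library 21.2% of TRBV3 clonotypes had 16 residues and 9.65% had 13, against 9.12% and 20.7% of the others. In the DN library these lengths held 17.5% and 19.4% of TRBV3 clonotypes, against 13.2% and 16.4% of the others, and the shortest TRBV3 clonotype had 18 nucleotides. Short loops lower the TRBV3 means. Those of 8 residues were 0.772%, 0.352% and 1.88% of TRBV3 clonotypes in the CD4, CD8 and DN libraries (2, 2 and 3 clonotypes). Of the other V genes they were 0.0780%, 0.115% and 0.0684%.

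The longer CDR3 in the CD4 library was seen with TRBJ2-5 and with other J genes. When the other V genes were weighted to the J gene use of TRBV3, their means became 41.97 nucleotides in the CD4, 41.9 in the CD8 and 42.9 in the DN library. TRBV3 clonotypes with TRBJ2-5 averaged 44.5, 42.9 and 43.7 nucleotides in the CD4, CD8 and DN libraries, and those with other J genes 43.5, 42.7 and 42.2. In the CD4 library the other V genes averaged 41.9 nucleotides with TRBJ2-5 and 41.7 with other J genes. The stretch that matched the TRBV3 start averaged 13.0, 12.9 and 12.8 of 14 bases, and the junction 13.2 ± 4.19, 12.3 ± 4.39 and 12.8 ± 4.84 bases (SD). Weighting by reads in place of clonotypes raised the difference to 4.76 nucleotides in the CD4 library and 1.87 in the DN library. CD4-a, with 54 nucleotides, held 19.4% of TRBV3 reads in the CD4 library. DN-a held 23.4% of those in the DN library, but with 42 nucleotides it was shorter than the TRBV3 mean of 42.8 there. Which clonotypes made up the rise in the DN library was not tested.

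At the protein level, most TRBV3 loops opened with CASS, the usual start of a mouse CDR3β, at 91.9% in the CD4, 94.2% in the CD8 and 90.6% in the DN library, against 53.8%, 55.0% and 57.1% of the other V genes. The next residue was leucine (CASSL) in 56.4%, 50.9% and 48.1% of TRBV3 clonotypes and proline (CASSP) in 10.04%, 11.6% and 8.75%. In-frame TRBV3 loops encoded by more than 1 nucleotide sequence with the same J gene within a library were 5 of 254 amino acid sequences in the CD4 (1.97%), 13 of 555 in the CD8 (2.34%) and 2 of 158 in the DN library (1.27%). The other V genes, which had many more clonotypes, stood at 5.30%, 6.84% and 5.11%, and no test was made.

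Clone sizes differed between the subsets, with a few large TRBV3 clonotypes in the CD4 and DN libraries and none above 27 reads in the CD8 library. CD4-a had 159 reads, CD4-b 74 and CD4-c 23 in the CD4 library. In the CD8 library CD8-a had 27 reads, CD8-b 24 and DN-a 23. In the DN library DN-a had 195 reads, DN-b 65 and DN-c 53. The largest clonotype thus held 19.4% of TRBV3 reads in the CD4, 2.82% in the CD8 and 23.4% in the DN library, and the 10 largest held 43.3%, 14.0% and 55.1%. The number of clonotypes that held 50% of TRBV3 reads was 18 in the CD4, 144 in the CD8 and 8 in the DN library. This was 6.27%, 24.1% and 3.90% of TRBV3 clonotypes, beside 7.07%, 19.1% and 3.05% over all TCRβ clonotypes. Among all TCRβ clonotypes CD4-a ranked 40th in the CD4, DN-a 79th in the DN and CD8-a 193rd in the CD8 library.

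Single reads made up 195 of 287 TRBV3 clonotypes in the CD4 (67.9%), 430 of 598 in the CD8 (71.9%) and 134 of 205 in the DN library (65.4%), against 62.0%, 68.9% and 56.4% of the other V genes. The ratio passed in the DN library (1.16, 1.05 to 1.28; adjusted p = 0.0394) and not in the CD4 library (1.10, 1.01 to 1.19; adjusted p = 0.130) or the CD8 library (1.04, 0.992 to 1.10; adjusted p = 0.181), by Fisher's exact tests. The share of V genes called was 15.4% in the CD4, 37.5% in the CD8 and 27.6% in the DN library. With in-frame clonotypes only, the ratio in the DN library was 1.13 and did not pass (adjusted p = 0.245, Fisher's exact test). Reads per clonotype averaged 2.85 for TRBV3 in the CD4, 1.60 in the CD8 and 4.07 in the DN library, beside 2.98, 1.86 and 4.63 for the other V genes.

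**Figure D4:**
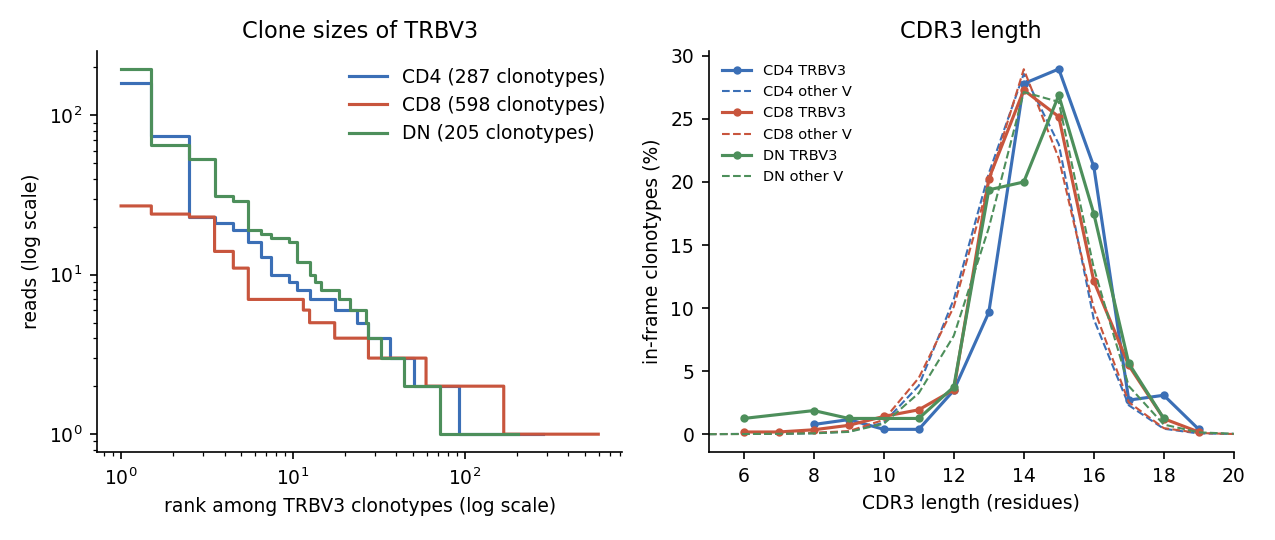
Left, reads of each TRBV3 clonotype against its rank among the TRBV3 clonotypes of its library, both on log scales; the DN and CD4 curves start at 195 and 159 reads and the CD8 curve at 27. Right, percent of in-frame clonotypes at each CDR3 length in residues, for TRBV3 (points and solid lines) and all other V genes (dashed lines) of each library; the CD4 curve of TRBV3 lies to the right of its dashed curve.

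Most TRBV3 clonotypes were found in a single library. Those found in another library held 68.9% of TRBV3 reads in the DN library, beside 69.9% for the other V genes. Of 1031 distinct TRBV3 clonotypes, defined by nucleotide CDR3 and J gene, 262 were found only in the CD4, 558 only in the CD8 and 163 only in the DN library. The CD8 and DN libraries alone shared 23, the CD4 and DN libraries alone 8, the CD4 and CD8 libraries alone 6, and 11 were found in each library. The 34 clonotypes that the DN and CD8 libraries had in common were 16.6% of TRBV3 clonotypes in the DN library and 5.69% in the CD8 library. For the other V genes these shares were 18.5% and 9.60%. The 34 TRBV3 clonotypes held 64.9% of TRBV3 reads in the DN library and 11.8% in the CD8 library, where the other V genes stood at 66.6% and 24.7%. The 19 that the DN and CD4 libraries had in common were 9.27% of clonotypes in the DN library and 6.62% in the CD4 library, with 48.7% and 5.99% of reads. Clonotypes of the other V genes shared by these libraries were 8.95% and 8.39% of clonotypes and held 49.4% and 21.9% of reads. No test was made of these shares of reads. The CD4 and CD8 libraries had 17 in common, which were 5.92% and 2.84% of their TRBV3 clonotypes, beside 8.72% and 4.81% for the other V genes. A single read was enough to count a clonotype as found. With at least 2 reads required in each library, the DN and CD8 libraries had 14 TRBV3 clonotypes in common. The DN and CD4 libraries then had 6 and the CD4 and CD8 libraries 5, and 3 were found in each library.

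TRBV3 clonotypes were found in another library less often than those of other V genes in the CD8 library. The share was 25 of 287 in the CD4 (8.71%, 5.97 to 12.5), 40 of 598 in the CD8 (6.69%, 4.95 to 8.98) and 42 of 205 in the DN library (20.5%, 15.5 to 26.5), against 12.8%, 12.02% and 22.9% of the other V genes. The ratio was 0.556 in the CD8 library (0.412 to 0.751; adjusted p = 4.65e-05), 0.682 in the CD4 library (0.468 to 0.992; adjusted p = 0.0640) and 0.896 in the DN library (0.684 to 1.17; adjusted p = 0.665), by Fisher's exact tests. By the same test 57.7% of V genes were called in the CD4, 58.3% in the CD8 and 27.6% in the DN library. Per possible pair of clonotypes, the DN library shared TRBV3 clonotypes with the CD8 library at 0.859 times the rate with the CD4 library (p = 0.660, two-sided exact binomial test), and the partners were not told apart by TRBV3. The 11 clonotypes found in each library count for both partners in this test, so its counts are not independent. For other V genes this ratio ran from 0.403 for TRBV14 to 3.92 for TRBV24.

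Shared TRBV3 clonotypes and those of the other V genes more often had the higher share of reads in the DN library. Of the 34 found in the DN and CD8 libraries, 24 had the higher share of TCRβ reads in the DN library, with a median ratio of 2.33 and a range from 0.0706 to 22.5. This was 70.6%, beside 66.3% and a median ratio of 1.94 for the other V genes. Of the 19 found in the DN and CD4 libraries, 13 had the higher share in the DN library (68.4%), with a median ratio of 2.06. The other V genes stood at 64.2%, also with a median ratio of 2.06. DN-a made up 0.100% of TCRβ reads in the DN (0.0872 to 0.115), 0.0152% in the CD8 (0.0102 to 0.0229) and 0.00150% in the CD4 library (0.000410 to 0.00546), with 195, 23 and 2 reads. DN-a was named for being the largest TRBV3 clonotype of the DN library, so these shares are a description. DN-b had 65 reads in the DN, 7 in the CD8 and 0 in the CD4 library, and DN-c had 53, 7 and 1.

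The largest clonotypes of the CD4 and CD8 libraries differed in where else they were found. CD4-a had 159 reads in the CD4, 1 in the CD8 and 0 in the DN library. CD4-b and CD4-c had no read in the CD8 or DN libraries, and CD8-a and CD8-b had none in the CD4 or DN libraries. The third largest of the CD8 library was DN-a, the largest of the DN library. A floor of 3 counts, used here as the limit that a count of 0 allows, corresponds to a share of 0.00224% in the CD4, 0.00199% in the CD8 and 0.00154% in the DN library. Of the 10 largest TRBV3 clonotypes of the DN library, 8 were found in the CD8 library and 7 in the CD4 library. Of the 10 largest of the CD8 library, 5 were found in the DN library and 3 in the CD4 library. The 5 had 317 reads in the DN library, of which 195 were those of DN-a. Of the 10 largest of the CD4 library, 3 were found in the CD8 library and 1 in the DN library. The largest clonotypes of other V genes were not counted in this way. Whether these counts are particular to TRBV3 was therefore not tested, and they are a description only.

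Of the 11 clonotypes found in each library, 6 used TRBJ2-5, and 8 had their highest share of TCRβ reads in the DN library (72.7%, beside 77.5% for the other V genes). Only 3 of the 11 had at least 2 reads in every library. Together they held 374 reads in the DN, 59 in the CD8 and 30 in the CD4 library. Shared-a had 31 reads in the DN, 5 in the CD8 and 3 in the CD4 library, and shared-c had 18, 4 and 2. In the DN library the clonotypes found elsewhere were in frame in 39 of 42 cases, and those found in the DN library alone in 121 of 163 (92.9% and 74.2%). The other V genes stood at 95.9% and 89.7%.

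**Figure D5:**
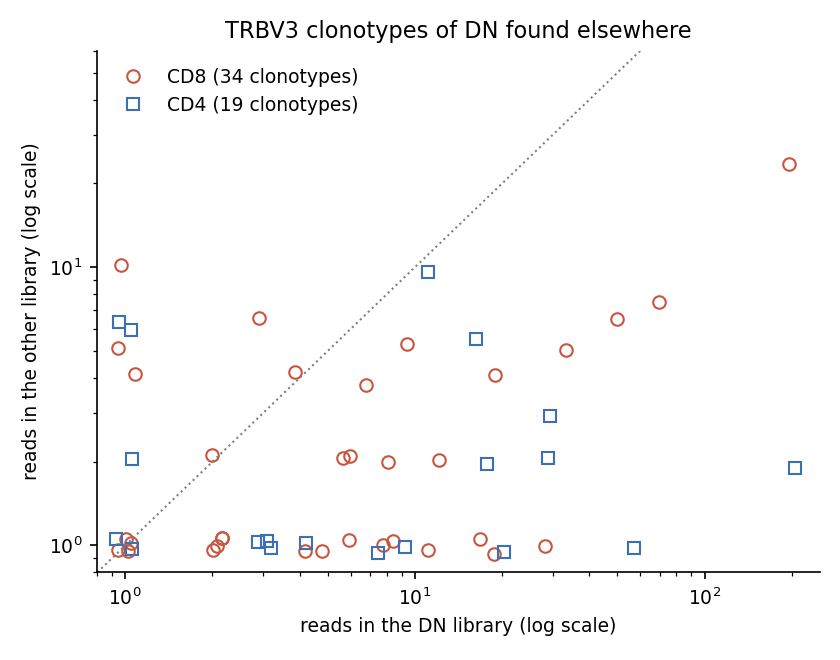
Reads of each TRBV3 clonotype of the DN library that was also found in the CD8 library (circles, 34) or the CD4 library (squares, 19), in the DN library on the horizontal and in the other library on the vertical axis, both on log scales, with small random shifts so that equal points can be seen. The dotted line marks equal reads, not equal shares; the point farthest right is DN-a with 195 reads in the DN library.

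V gene calls bear on the counts of sharing, since each CDR3 was listed with 1 V gene per library. Of TRBV3 CDR3 sequences of the CD8 library that were found with the same J gene in the DN library, 34 of 45 were listed with TRBV3 there and 11 with another V gene, namely TRBV4 for 4, TRBV5 for 3, TRBV13-1 for 2, and TRBV13-3 and TRBV19 for 1 each. This share of 24.4% stood beside 7.90% for the CDR3 sequences of the other V genes. In the opposite direction, 5 of 39 TRBV3 CDR3 sequences of the DN library found in the CD8 library had another V gene there (12.8%, beside 7.97%). Of those of the CD8 library found in the CD4 library, 9 of 26 did (34.6%, beside 16.0%). From the CD4 to the CD8 library it was 6 of 23 (26.1%, beside 16.1%). From the CD4 to the DN library it was 3 of 22 (13.6%, beside 6.88%), and from the DN to the CD4 library 1 of 20 (5%, beside 6.93%). Counting a clonotype as found whatever V gene was listed gave a ratio over the other V genes of 0.695 in the CD8 library (adjusted p = 0.00564, Fisher's exact test). Leaving out each CDR3 with several V genes gave ratios of TRBJ2-5 pairing of 3.70 in the CD4, 2.96 in the CD8 and 3.33 in the DN library, and a ratio of in-frame shares of 0.852 in the DN library.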

How the data were processed

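CD4, CD8 and DN subsets of T cells were sorted from the spleen of 1 MRL.lpr mouse, and a library of TCR mRNA was made per subset with the Takara SMARTer Mouse TCR kit. MiXCR was used by the authors to turn reads into clonotypes; version and settings are not given in the sources used here. The deposited tables hold each clonotype's read count, not normalized, and its fraction of the table's reads, which was checked to equal count over total.

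TCRβ clonotypes were those with a TRBV and a TRBJ gene; 263 other clonotypes were left out. No filter on reads or frame was applied. Reads or clonotypes were compared by two-sided Fisher's exact tests for every V gene (or V by J pair), with Benjamini-Hochberg adjustment and a threshold of 0.05; ratios have log-scale Wald intervals. Alternatives covered frame, a minimum of 2 reads, merging, the largest clonotypes, reads spilled between libraries and V gene calls; the V gene call, frame-shift, TRBJ2-5 and within-TRBJ2 settings were chosen after seeing the data. The 3 largest clonotypes of each library and the 3 with the highest lowest share among those in all libraries, J genes past the test or among the 3 most used, and the 3 nearest V genes were named. Members and lists were chosen with earlier results of these data known. Some measures were tested on simulated data, and 13 of 13 quantities came within 10% over 5 seeds. They covered ratios of clonotype shares, the in-frame and TRBJ2-5 shares, the length difference and the number of clonotypes at a given depth. Shares of reads, TRBJ2 and TRBD2 use, single reads and sharing between libraries were not tested in this way. Scripts ran in Python 3.11.15 with SciPy 1.17.1, pandas 2.3.3, NumPy 2.4.6 and, for plots, matplotlib 3.10.9.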

Additional observations from a re-analysis of the deposited data

How the results depend on the processing

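Of 146 alternative values for 34 results, 126 kept their direction and side of the threshold or moved little. With at least 2 reads per clonotype, the ratio of the TRBV3 read share of CD4 over CD8 T cells was 1.06 and that of clonotypes of DN over CD4 T cells 0.718 (adjusted p = 0.0680, Fisher's exact test); TRBD2 in CD8 T cells fell short of the threshold (1.13), sharing in DN T cells was 1.08, the rate of sharing of DN T cells with CD8 over CD4 T cells was 1.28, and the length difference was 3.22 nucleotides for the CD4, 0.545 for the CD8 and 0.995 for the DN library. The DN library thus stood above the CD8 library here, as it did when weighted by reads. Without the largest TRBV3 clonotype, the read share of CD4 over CD8 T cells passed at 0.801. In-frame clonotypes alone gave 0.853 for the clonotype share of CD4 over CD8 T cells and 1.13 for TRBJ2 in DN T cells, both now past the threshold, 1.13 for single reads in DN T cells, no longer past it, and 1.01 for sharing in DN T cells. Merging by amino acid sequence gave 0.836 and 1.14 for the first 2 of these. Without spilled reads, sharing in CD4 T cells passed at 0.659. Without TRBJ2-5, TRBJ2 use was 1.09 in CD4 and 0.943 in DN T cells, and within TRBJ2 clonotypes TRBD2 was 1.08 in CD4 T cells. Weighting by reads gave length differences of 4.76 nucleotides in CD4 and 1.87 in DN T cells. Apart from the construction of these settings, the cause was not tested. The pairing with TRBJ2-5 and the in-frame share in DN T cells kept their calls under each alternative run for them. With at least 2 reads, however, the ratio of the in-frame share in DN T cells was nearer to 1, at 0.913. Its interval of 0.831 to 1.003 included 1 (adjusted p = 0.0118, Fisher's exact test). No paired analysis was possible because each subset had 1 library. With 1 animal and 1 library per subset, no value has a replicate check, and TRBV3 held 818 to 956 reads per library, which limits the precision of shares within it.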
